A study of Mus musculus with 16 samples.

Results

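The 10 genes described here, *Vegfa*, *Vegfb*, *Flt1*, *Kdr*, *Pecam1*, *Cdh5*, *Tek*, *Angpt1*, *Apln* and *Aplnr*, carry vascular growth signals of muscle or mark its vessel cells. They were taken by gene symbol from a table of 41388 genes, and all 10 were found. Total RNA of quadriceps muscle was sequenced from C57BL/6 mice at 36 days of age in 4 groups. WT mice carried intact *Mtm1*, and *Mtm1* KO mice lacked exon 4 of the gene, which encodes the phosphoinositide phosphatase myotubularin. WT + TAM and *Mtm1* KO + TAM mice received tamoxifen, a modulator of estrogen receptors, mixed into the diet at 40 mg/kg from day 21. The other groups ate standard chow. The deletion is not limited to 1 cell type. The 14 libraries that the study used were 3 of WT, 4 of WT + TAM, 3 of *Mtm1* KO and 4 of *Mtm1* KO + TAM, each from a separate mouse.

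VEGF-A is secreted by muscle fibres and other cells and acts on the endothelial cells that line vessels. Its main signalling receptor is VEGFR2, encoded by *Kdr*, while VEGFR1, encoded by *Flt1*, binds VEGF-A and VEGF-B tightly and signals weakly. *Pecam1* and *Cdh5* encode adhesion proteins of the junctions between endothelial cells. *Angpt1* encodes a ligand made by cells around vessels, and *Tek* encodes its endothelial receptor TIE2, a pathway known for keeping vessels stable. *Apln* encodes the peptide apelin, and *Aplnr* encodes its receptor, which endothelial cells carry during vessel growth.

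The stretches before the transcription start are shown for the ligand *Vegfa*, for its receptors *Kdr* and *Flt1*, and for *Apln*. They are the 250 bases before the start in RefSeq (GRCm38.p6), 5′ to 3′ on the strand of the gene, at chr17:46032378-46032627, chr5:75978456-75978705, chr5:147726012-147726261 and chrX:48034854-48035103, all on the minus strand. Capitals mark ACGTG or GCGTG, the core bound by hypoxia-inducible factors, AGGAAG or CGGAAG, a core of the ETS factors of endothelial cells, and AGGTCA, a core bound by nuclear receptors, on either strand.
Vegfa: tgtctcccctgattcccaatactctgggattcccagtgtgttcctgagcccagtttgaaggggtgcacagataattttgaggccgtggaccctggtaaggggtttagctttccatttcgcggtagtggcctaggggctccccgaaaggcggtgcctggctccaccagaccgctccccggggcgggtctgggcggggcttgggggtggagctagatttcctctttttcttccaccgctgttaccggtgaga
Kdr: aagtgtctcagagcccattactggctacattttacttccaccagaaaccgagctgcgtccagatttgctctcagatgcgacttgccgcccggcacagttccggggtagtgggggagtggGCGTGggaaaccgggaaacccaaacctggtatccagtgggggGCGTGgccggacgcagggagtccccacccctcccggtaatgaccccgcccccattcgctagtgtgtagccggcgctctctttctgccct
Flt1: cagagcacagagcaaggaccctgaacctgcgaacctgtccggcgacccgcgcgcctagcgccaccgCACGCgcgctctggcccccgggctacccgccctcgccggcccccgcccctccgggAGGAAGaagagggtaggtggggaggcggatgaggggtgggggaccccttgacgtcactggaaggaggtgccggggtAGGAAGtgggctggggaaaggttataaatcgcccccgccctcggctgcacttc
Apln: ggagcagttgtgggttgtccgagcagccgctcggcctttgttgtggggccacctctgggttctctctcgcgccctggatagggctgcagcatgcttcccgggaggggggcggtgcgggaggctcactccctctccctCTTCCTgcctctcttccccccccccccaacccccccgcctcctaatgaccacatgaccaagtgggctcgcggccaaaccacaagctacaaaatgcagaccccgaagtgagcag
A promoter was found for 6 of the 10 genes, namely these 4, *Tek* and *Vegfb*. The hypoxia core was present in 3 of the 6 (*Kdr*, *Flt1* and *Vegfb*), against 38.6% of 32851 promoters of the same length. The ETS core was present in 2 of the 6 (*Flt1* and *Apln*), against 39.2%, and AGGTCA in 1 of the 6 (*Vegfb*), against 4607 of the 32851. The stretch shown for *Vegfa*, at the outermost of its starts, held none of these letters. The stretch before another RefSeq start of *Vegfa*, at chr17:46025163 within the gene, is not shown and held 2 hypoxia cores. Sequence further upstream was not searched. The E-box CANNTG, which is not capitalised, was present in 4 of the 6, against 66.2%. These matches are descriptions of sequence and were not tested for binding.

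The total count ranged from 25702605 to 29847222 over the 14 libraries, and a single library held between 59 and 3719 reads of any of the 10 genes. *Mtm1* had 341 to 369 counts in WT, 282 to 459 in WT + TAM, 63 to 76 in *Mtm1* KO and 53 to 97 in *Mtm1* KO + TAM. The library labelled WT replicate 1, which the study left out, had 74 *Mtm1* counts, against its label, and *Mtm1* KO replicate 12, also left out, had 85. Neither enters the tests below. Levels are RPKM, reads scaled by gene length and total mapped reads, as deposited, which are scaled by total count alone. The tests use edgeR with TMM scaling, which corrects for a few abundant genes taking a large share of a library. The TMM factors were 0.856 to 0.956 in WT, 0.897 to 0.928 in WT + TAM, 1.12 to 1.17 in *Mtm1* KO and 1.03 to 1.19 in *Mtm1* KO + TAM. Scaling by total count instead put the median log2 difference of all genes at 0.33 in *Mtm1* KO vs. WT, at 0.28 in *Mtm1* KO + TAM vs. WT and at 0.27 in *Mtm1* KO + TAM vs. WT + TAM, against 0.02, -0.00 and -0.01 with TMM. RPKM values of KO and WT groups therefore sit on scales that differ by about these amounts, whereas those of WT + TAM and WT do not.

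The order of the 10 genes by mean RPKM over the 14 libraries was *Vegfb* (47.4), *Cdh5* (21.6), *Vegfa* (18.1), *Pecam1* (14.3), *Kdr* (7.01), *Aplnr* (6.64), *Flt1* (5.03), *Tek* (4.58), *Apln* (3.02) and *Angpt1* (2.87). The ligand *Vegfb* was thus the most abundant transcript of the set and the ligand *Angpt1* the least. Of the 27 endothelial markers other than these genes, none was at 0 in any library, and their summed level was 341 ± 62.0 RPKM (SD, n = 3) in WT.

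**Figure D1:**
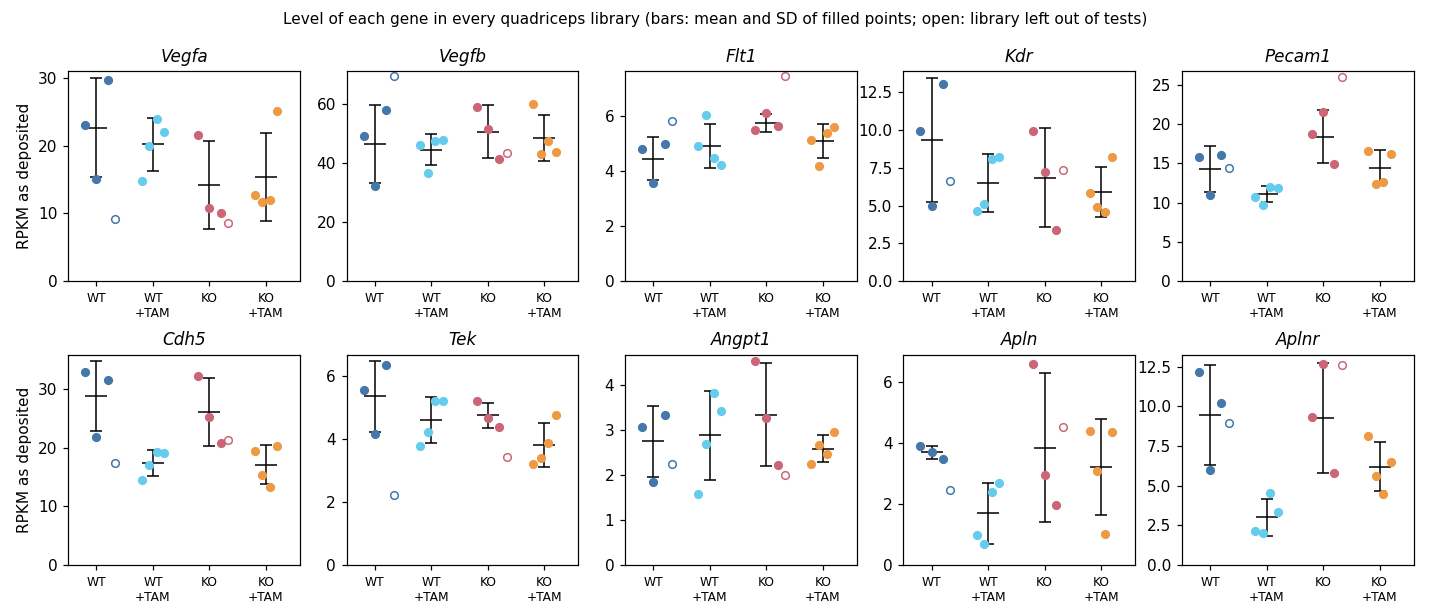
Level of each gene in RPKM (vertical axis, from 0) in every library of the 4 groups on the horizontal axis. Filled points are the 14 libraries tested, bars their mean and SD, and open points the libraries WT replicate 1 and *Mtm1* KO replicate 12. *Aplnr* and *Cdh5* of WT + TAM lie below all 3 tested WT libraries.

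Among the ligands, *Vegfa* (chr17:46016993-46032369, GRCm38, minus strand) was higher on average in WT than in *Mtm1* KO, with wide spread. Its level was 23.1, 15.1 and 29.7 RPKM in WT replicates 2 to 4, and 21.6, 10.8 and 10.1 RPKM in *Mtm1* KO replicates 9 to 11. With tamoxifen it was 14.8, 19.96, 24.0 and 22.1 RPKM in WT + TAM replicates 5 to 8, and 12.8, 11.8, 11.9 and 25.2 RPKM in *Mtm1* KO + TAM replicates 13 to 16. In each KO group 1 library, *Mtm1* KO replicate 9 or *Mtm1* KO + TAM replicate 16, lay within the WT range, so the groups overlapped. *Vegfb* (chr19:6982473-6987651, minus strand) had group means between 44.5 ± 5.29 RPKM (SD, n = 4) in WT + TAM and 50.6 ± 8.89 RPKM (SD, n = 3) in *Mtm1* KO, and all neighbouring groups overlapped.

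Of the VEGF receptors, *Kdr* (chr5:75932827-75978458, minus strand) was 9.96, 4.96 and 13.1 RPKM in WT and 9.93, 7.22 and 3.41 RPKM in *Mtm1* KO. It was 4.64, 5.10, 8.07 and 8.22 RPKM in WT + TAM and 5.82, 4.91, 4.60 and 8.23 RPKM in *Mtm1* KO + TAM. The WT values differed by more than a factor of 2 among themselves, and every group overlapped with every other. *Flt1* (chr5:147561604-147726011, minus strand) varied less, from 4.45 ± 0.771 RPKM (SD, n = 3) in WT to 5.73 ± 0.311 RPKM (SD, n = 3) in *Mtm1* KO. The *Mtm1* KO libraries lay above the WT libraries in RPKM, where 40.9% of all tested genes did the same, and overlapped with them once divided by the TMM factors.

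*Cdh5* (chr8:104101625-104144511, plus strand), which encodes VE-cadherin, was lowest in the 2 tamoxifen groups. Its level was 32.9, 21.9 and 31.5 RPKM in WT, and 14.5, 17.0, 19.2 and 19.0 RPKM in WT + TAM. It was 32.3, 25.2 and 20.7 RPKM in *Mtm1* KO, and 19.4, 15.4, 13.3 and 20.3 RPKM in *Mtm1* KO + TAM. In RPKM each tamoxifen group lay below its untreated group without overlap, but in the KO pair the groups overlapped once divided by the TMM factors. *Pecam1* (chr11:106654217-106750628, minus strand) had a mean of 18.4 ± 3.34 RPKM (SD, n = 3) in *Mtm1* KO and of 14.3 ± 2.91 RPKM (SD, n = 3) in WT. With tamoxifen the mean was 14.4 ± 2.24 RPKM (SD, n = 4) in the KO and 11.1 ± 1.05 RPKM (SD, n = 4) in the WT. In the order of their means, *Mtm1* KO, *Mtm1* KO + TAM, WT and WT + TAM, each group overlapped with the next. *Mtm1* KO + TAM lay above WT + TAM without overlap in RPKM, as did 26.5% of all tested genes.

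*Tek* (chr4:94739289-94874976, plus strand) was 5.58, 4.16 and 6.36 RPKM in WT and 5.21, 4.67 and 4.399 RPKM in *Mtm1* KO. It was 3.78, 4.23, 5.23 and 5.23 RPKM in WT + TAM and 3.20, 3.39, 3.88 and 4.79 RPKM in *Mtm1* KO + TAM. The groups overlapped in RPKM, and after division by the TMM factors *Mtm1* KO and *Mtm1* KO + TAM lay below WT without overlap. *Angpt1* (chr15:42424723-42676977, minus strand), the ligand of TIE2, had group means from 2.59 ± 0.294 RPKM (SD, n = 4) in *Mtm1* KO + TAM to 3.35 ± 1.15 RPKM (SD, n = 3) in *Mtm1* KO, with overlap throughout.

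The apelin pair had its lowest values in WT + TAM. *Aplnr* (chr2:85136225-85139923, plus strand) was 12.2, 6.00 and 10.2 RPKM in WT and 2.17, 2.01, 4.53 and 3.35 RPKM in WT + TAM. It was 9.36, 12.7 and 5.78 RPKM in *Mtm1* KO and 8.12, 5.63, 4.46 and 6.52 RPKM in *Mtm1* KO + TAM. All WT + TAM libraries lay below all WT libraries, and *Mtm1* KO + TAM overlapped with both *Mtm1* KO and WT + TAM. *Apln* (chrX:48025146-48034853, minus strand) was 3.9, 3.70 and 3.49 RPKM in WT and 0.980, 0.698, 2.40 and 2.71 RPKM in WT + TAM, again without overlap. In *Mtm1* KO it was 6.61, 2.94 and 1.98 RPKM and in *Mtm1* KO + TAM 4.42, 3.08, 1.03 and 4.36 RPKM, each group spanning the WT values.

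The comparison of WT + TAM with WT asks how the tamoxifen diet related to these genes in muscle with intact *Mtm1*. Per the paper, this diet also contained sucrose, and WT mice on this dose had lower body weight and smaller myofibres than untreated WT. The part of diet, weight and fibre size in the values below was not tested. No member passed an adjusted p of 0.01 (edgeR quasi-likelihood test with Benjamini-Hochberg adjustment over 14544 genes), where 0.131% of all tested genes passed. At an unadjusted p under 0.05 there were 4 of the 10 members, beside 1549 of the 14544 genes. DESeq2 and the edgeR exact test called 2 each, *Cdh5* and *Aplnr*, where either tool called 1.22% of all genes. Limma called 0 members and 0.103% of all genes. *Aplnr* differed by -1.64 (SE 0.29) on the log2 scale, with an adjusted p of 0.0481 in the edgeR quasi-likelihood test, and 0.55% of all genes were within 0.05. *Cdh5* differed by -0.72 (SE 0.14, adjusted p 0.0647, edgeR) and *Apln* by -1.13 (SE 0.40, adjusted p 0.343, edgeR). These 3 genes were the members without overlap between WT + TAM and WT, lower in 4 of 4 libraries, on RPKM as well as after TMM scaling. Lower without overlap were 5.95% of all tested genes on RPKM and 6.36% after TMM scaling. *Kdr*, *Pecam1* and *Tek* had differences of -0.51, -0.36 and -0.21, and *Vegfa* and *Vegfb* of -0.16 and -0.05, all with overlap. With WT replicate 1 added, the difference was -1.68 for *Aplnr* and -0.60 for *Cdh5*.

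In the same comparison 25 of 32 endothelial markers, which include 5 of the members, were below 0, with a median difference of -0.31 against -0.00 over all genes, and 0 of the 32 passed the test. The median was -0.26 over 10 pericyte and smooth muscle markers, -0.29 over 6 fibroblast markers and -0.01 over 8 muscle fibre markers, with 0 passing in each list. In bulk muscle, fewer cells of a type and less RNA per cell cannot be told apart. The summed level of the 27 other endothelial markers was 272 to 392 RPKM in WT and 277 to 294 RPKM in WT + TAM. As a share of that sum, *Aplnr* made 2.205 to 3.12% in WT and 0.696 to 1.57% in WT + TAM, and *Cdh5* 8.04 to 8.73% in WT and 5.24 to 6.66% in WT + TAM. Both shares were thus lower in WT + TAM without overlap when set against the other vessel markers of the same library. The *Apln* share was also lower without overlap, at 0.9685 to 1.36% in WT and 0.242 to 0.922% in WT + TAM. The *Flt1* share was higher without overlap, at 1.23 to 1.38% in WT and 1.44 to 2.09% in WT + TAM. The shares of the remaining members overlapped between WT + TAM and WT. The lower *Cdh5* share was not particular to WT + TAM. It was also below WT in *Mtm1* KO (5.90 to 7.45%) and in *Mtm1* KO + TAM (4.59 to 5.96%). The *Tek* share was 1.42 to 1.76% in WT and 1.12 to 1.25% in *Mtm1* KO, whereas the *Aplnr* share in *Mtm1* KO, 1.65 to 3.03%, overlapped with WT. All shares come from the libraries tested above and have no test of their own. How many of all genes would lie apart in the same way was not computed. *Aplnr*, *Cdh5* and *Apln* already lay apart in RPKM, so their shares are not separate evidence.

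**Figure D2:**
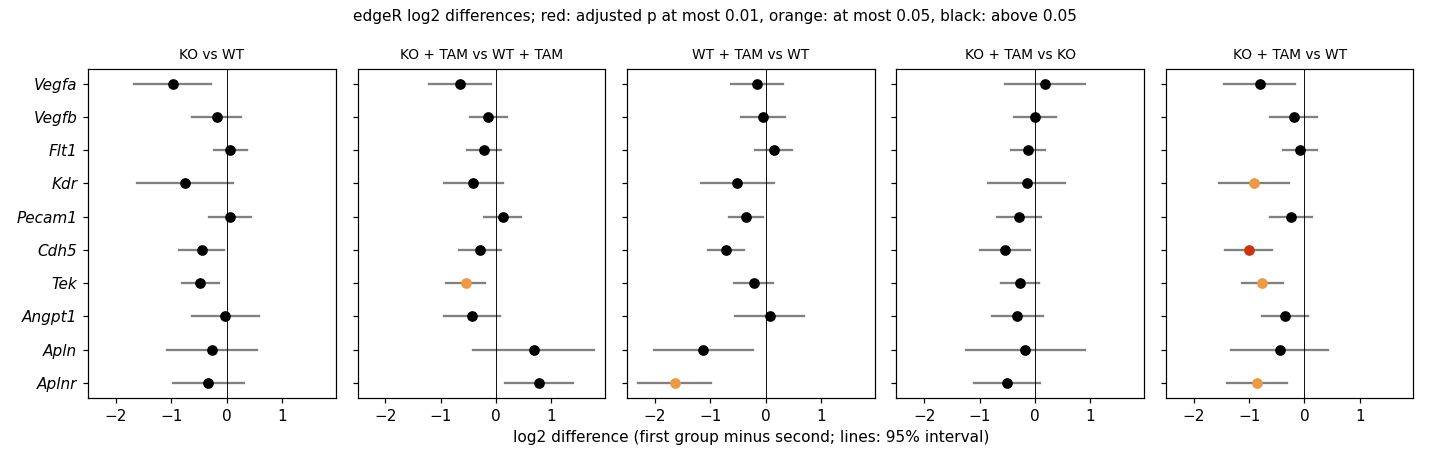
Log2 difference of each gene (horizontal axis, first group minus second) with its 95% interval, 1 panel per comparison, from the edgeR quasi-likelihood test. Red marks an adjusted p of at most 0.01, reached by *Cdh5* in *Mtm1* KO + TAM vs. WT, and orange one of at most 0.05.

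The comparison of *Mtm1* KO with WT asks how loss of myotubularin related to the same genes. No member passed the adjusted p of 0.01 in the edgeR quasi-likelihood test, where 3.6% of all tested genes did. An unadjusted p under 0.05 was reached by 3 of the 10 members and by 4431 of 14740 genes, a like share. DESeq2 called 1 member, *Vegfa*, with 10.2% of all genes called. The edgeR exact test called 0 members and 9.85% of all genes, and limma with pseudocounts of 0.1 and 1 called 0 members and 5.59% and 5.13% of all genes. *Vegfa* differed by -0.98 (SE 0.31, adjusted p 0.0663, edgeR), and the adjusted p lay between 0.0034 and 0.313 over the alternatives that leave out no library. *Tek* differed by -0.48 (SE 0.15, adjusted p 0.0666, edgeR), *Cdh5* by -0.45 (SE 0.18, adjusted p 0.134) and *Kdr* by -0.75 (SE 0.39, adjusted p 0.227). Leaving out 1 library moved *Kdr* between -1.11, without *Mtm1* KO replicate 9, and -0.43, without WT replicate 4, and *Vegfa* between -1.40 and -0.75 without the same libraries, with no call. *Tek* was lower without overlap after TMM scaling, as were 19% of all tested genes. *Flt1* and *Pecam1* had differences of 0.06 each, with 95% intervals of -0.24 to 0.36 and -0.32 to 0.43. *Vegfb*, *Angpt1* and *Apln* had differences of -0.18, -0.02 and -0.26. The sign of each of these 5 turned under at least 1 other scaling, test or set of libraries.

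Tamoxifen in the *Mtm1* KO was tested as *Mtm1* KO + TAM vs. *Mtm1* KO. No member passed the edgeR quasi-likelihood test, and 0% of 15062 tested genes did, with 1137 genes at an unadjusted p under 0.05. Of the members, only *Cdh5* had an unadjusted p under 0.05, and in RPKM it was lower without overlap, as were 5.38% of all tested genes. DESeq2, the edgeR exact test and limma called 0 members, and 0.454%, 0.478% and 0% of all genes. The difference was -0.55 (95% interval -0.99 to -0.10) for *Cdh5*, -0.51 (-1.11 to 0.08) for *Aplnr*, -0.29 (-0.68 to 0.10) for *Pecam1* and 0.18 (-0.54 to 0.90) for *Vegfa*. Of the 32 endothelial markers, 27 were below 0, with a median of -0.27 against -0.01 over all genes and 0 passing the test. Of 5 red blood cell markers, 5 were below 0, with a median of -0.32 and 0 passing, and their part in the result was not tested.

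Whether the difference between treated and untreated mice depended on genotype was tested by an interaction over all 4 groups. No member passed the edgeR quasi-likelihood test, nor did any of 15556 genes, with 0% called and 664 genes at an unadjusted p under 0.05. *Aplnr* had the largest value among the members, 1.14 (SE 0.45, 95% interval 0.19 to 2.09), which was the only one with an unadjusted p under 0.05 and had an adjusted p of 1.00 in edgeR. DESeq2 called 0 members and 0.084% of all genes, and limma called 0 members with 0.00643% and 0% of all genes at pseudocounts of 0.1 and 1. *Apln* had 0.97 (95% interval -0.58 to 2.51) and *Cdh5* 0.18 (-0.39 to 0.75), so a difference between genotypes was not shown for any of the 10 genes.

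Within tamoxifen-treated mice, *Mtm1* KO + TAM vs. WT + TAM gave no member at an adjusted p of 0.01 in the edgeR quasi-likelihood test, against 6.72% of all tested genes. An unadjusted p under 0.05 was reached by 3 of the 10 members and by 4700 of 14563 genes, a like share, and an adjusted p within 0.05 by 17% of all genes. DESeq2 and the edgeR exact test called 0 members with 12.2% and 12.5% of all genes, and limma called 0 members with 11.6% and 11.1% at pseudocounts of 0.1 and 1. *Tek* differed by -0.55 (SE 0.16, adjusted p 0.0364, edgeR), *Vegfa* by -0.66 (SE 0.26, adjusted p 0.101) and *Aplnr* by 0.78 (SE 0.28, adjusted p 0.0795). The *Vegfa* level of *Mtm1* KO + TAM replicate 16, 25.2 RPKM, lay above all WT + TAM libraries in RPKM. Divided by the TMM factors it was 23.3, within the WT + TAM range of 16.5 to 26.2. Without this library *Vegfa* differed by -1.02 with an adjusted p of 0.0038 in edgeR. Without *Mtm1* KO + TAM replicate 15 *Vegfa* differed by -0.51 with an adjusted p of 0.257. *Pecam1* was higher without overlap in RPKM, as were 26.5% of all tested genes, and overlapped after TMM scaling.

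Between the treated KO and untreated WT, 1 member, *Cdh5*, passed the edgeR quasi-likelihood test, against 7.7% of all tested genes called and 4.14% called lower. *Cdh5* fell by 1.01 on the log2 scale (SE 0.19, 95% interval -1.43 to -0.58, adjusted p 0.0054, edgeR), and its 4 *Mtm1* KO + TAM libraries lay below the 3 WT libraries on both scales, as did those of 6.54% of all tested genes in RPKM and 16.4% after TMM scaling. The call rested on single libraries, since it was lost without WT replicate 2 or 4 and without *Mtm1* KO + TAM replicate 14 or 15, with an adjusted p of up to 0.0229, and also with WT replicate 1 added (adjusted p 0.0299). DESeq2 called 4 members (*Cdh5*, *Tek*, *Kdr* and *Aplnr*) and the edgeR exact test 3, with 14.1% and 14% of all genes, and limma called 0 members with 10% and 8.94% of all genes at pseudocounts of 0.1 and 1. An adjusted p within 0.05 was reached by 20% of all genes in the edgeR quasi-likelihood test. *Tek* differed by -0.76 (SE 0.17, adjusted p 0.0107), *Aplnr* by -0.86 (SE 0.25, adjusted p 0.0332), *Kdr* by -0.91 (SE 0.29, adjusted p 0.0463) and *Vegfa* by -0.81 (SE 0.29, adjusted p 0.0739). All 10 members were below 0, with a median of -0.61 against -0.00 over all genes, but *Vegfb*, *Flt1* and *Pecam1* were above 0 under at least 1 other scaling or test, and *Flt1* also without 1 library. This comparison shares its WT libraries with the comparisons of *Mtm1* KO and of WT + TAM with WT, and it combines genotype and drug.

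**Figure D3:**
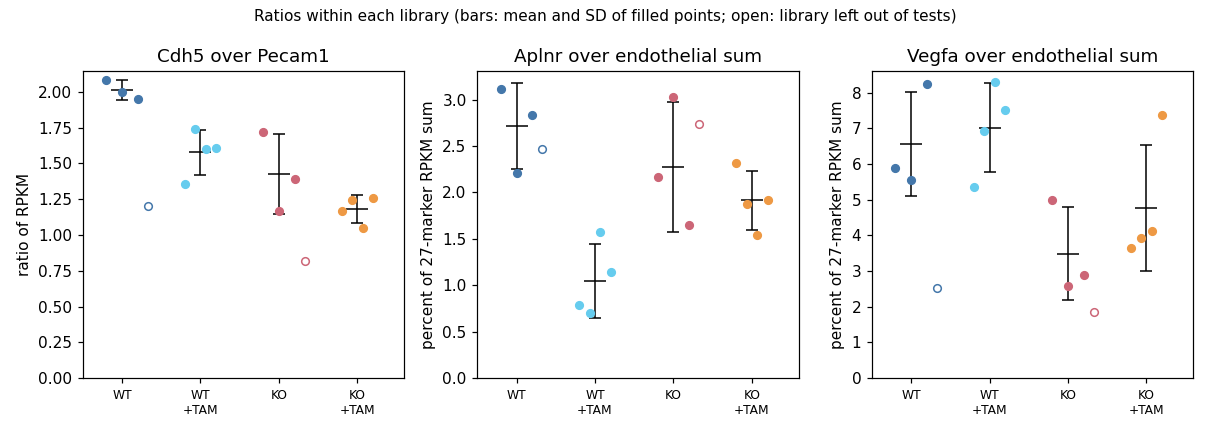
Ratios within each library, which no scaling between libraries can move: *Cdh5* over *Pecam1* in RPKM, and *Aplnr* and *Vegfa* as a percent of the summed RPKM of 27 other endothelial markers. Filled points are the libraries tested with mean and SD, open points those left out. The 3 WT libraries lie between 1.95 and 2.09 for *Cdh5* over *Pecam1*, above all others.

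Ratios of RPKM within a library are free of the scaling between libraries. This pair of ratios was chosen after its values were seen and has no test. *Cdh5* over *Pecam1*, 2 markers of the same junctions, was 1.95 to 2.09 in WT, 1.36 to 1.74 in WT + TAM, 1.17 to 1.72 in *Mtm1* KO and 1.05 to 1.26 in *Mtm1* KO + TAM. The 3 tested WT libraries lay above the other 11, whereas the library labelled WT replicate 1 had 1.20 and *Mtm1* KO replicate 12 had 0.821. *Kdr* over *Flt1* was 1.39 to 2.63 in WT, 0.847 to 1.95 in WT + TAM, 0.606 to 1.81 in *Mtm1* KO and 0.856 to 1.47 in *Mtm1* KO + TAM, with overlap between all groups. *Vegfa* made 5.55 to 8.24% of the endothelial sum in WT and 5.36 to 8.29% in WT + TAM. It made 2.58 to 4.99% in *Mtm1* KO and 3.65 to 7.39% in *Mtm1* KO + TAM. The sum is not weighted, and *Aqp1* (mean 118 RPKM) and *Cd34* (mean 49.6 RPKM) made a large part of it in WT. *Cd34* had a mean of 73.4 RPKM in *Mtm1* KO, so the shares also move with this gene.

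The other VEGF ligands and receptors are *Vegfc* and *Figf*, ligands of lymphatic growth, *Pgf*, a ligand of VEGFR1, *Flt4*, the lymphatic receptor, and the coreceptors *Nrp1* and *Nrp2*. Of these 6, 0 passed the edgeR test in *Mtm1* KO vs. WT, in WT + TAM vs. WT or in *Mtm1* KO + TAM vs. *Mtm1* KO. In *Mtm1* KO vs. WT the difference was 0.81 for *Pgf*, 0.15 for *Nrp1*, 0.15 for *Flt4*, 0.18 for *Figf*, 0.03 for *Nrp2* and -0.39 for *Vegfc*. Of 5 other genes of the angiopoietin and apelin systems, *Svep1*, a matrix protein that binds in this pathway, rose by 1.02 in *Mtm1* KO vs. WT (SE 0.17, adjusted p 0.0067, edgeR) and by 1.12 in *Mtm1* KO + TAM vs. WT + TAM (SE 0.13, adjusted p 4.31e-04, edgeR). Of all tested genes, 3.6% passed in the former comparison and 6.72% in the latter. The level of *Svep1* was 1.92, 1.24 and 1.75 RPKM in WT and 4.15, 4.77 and 3.36 RPKM in *Mtm1* KO. It was higher in *Mtm1* KO without overlap on both scales, as were 40.9% of all tested genes in RPKM and 17.4% after TMM scaling. *Angpt2*, the antagonist ligand of TIE2, differed by -0.34 in *Mtm1* KO vs. WT, *Angpt4* by 0.97, *Tie1*, the partner receptor of TIE2, by -0.12 and *Ptprb*, a phosphatase that restrains TIE2, by -0.17, and none of the 4 passed the test. In WT + TAM vs. WT, *Tie1* differed by -0.50 and *Angpt2* by -0.34, without passing.

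The hypoxia response genes hold oxygen sensors, hypoxia-inducible factors and their targets, *Vegfa* among them. Of these 15 genes, 2 passed in *Mtm1* KO vs. WT in edgeR, where 3.6% of all tested genes passed. The list had no common direction there, with 7 genes above 0, 8 below and a median of -0.12. *Egln3* rose by 2.36 (SE 0.29, adjusted p 0.0020) and *Egln1* fell by 0.67 (SE 0.12, adjusted p 0.0096), both of which encode oxygen-sensing prolyl hydroxylases that mark hypoxia-inducible factors for breakdown. In *Mtm1* KO + TAM vs. WT + TAM the same 2 genes passed, with differences of 1.23 and -0.66, and *Slc2a1*, a glucose transporter, rose by 0.74 (SE 0.13, adjusted p 0.0041). In that comparison 6.72% of all tested genes passed, and the list again had 7 genes above 0 and 8 below, with a median of -0.10. Of 5 muscle regulators of *Vegfa*, *Prkaa1*, a catalytic subunit of the energy sensor AMPK, rose by 0.75 in *Mtm1* KO vs. WT (SE 0.14, adjusted p 0.00998, edgeR). The list had 2 genes above 0 and 3 below there, with a median of -0.35. In *Mtm1* KO + TAM vs. WT + TAM 0 of the 5 passed. *Prkaa1* was at 3.3 to 3.9 RPKM in WT and 6.6 to 8.2 RPKM in *Mtm1* KO. *Prkaa2*, the other catalytic subunit, named after its values were seen, was at 26.5 to 28.7 and 18.7 to 25.2 RPKM. *Prkaa2* was called lower by edgeR in *Mtm1* KO + TAM vs. WT, as were 4.14% of all tested genes. Of 11 angiogenesis inhibitors and decoys, *Vash2* passed in *Mtm1* KO vs. WT with a rise of 1.70 (SE 0.28, adjusted p 0.0067, edgeR), a vasohibin known to favour vessel growth rather than to inhibit it. *Vash2* rose by 1.49 and *Thbs1*, a secreted inhibitor of vessel growth, by 1.16 in *Mtm1* KO + TAM vs. WT + TAM.

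**Figure D4:**
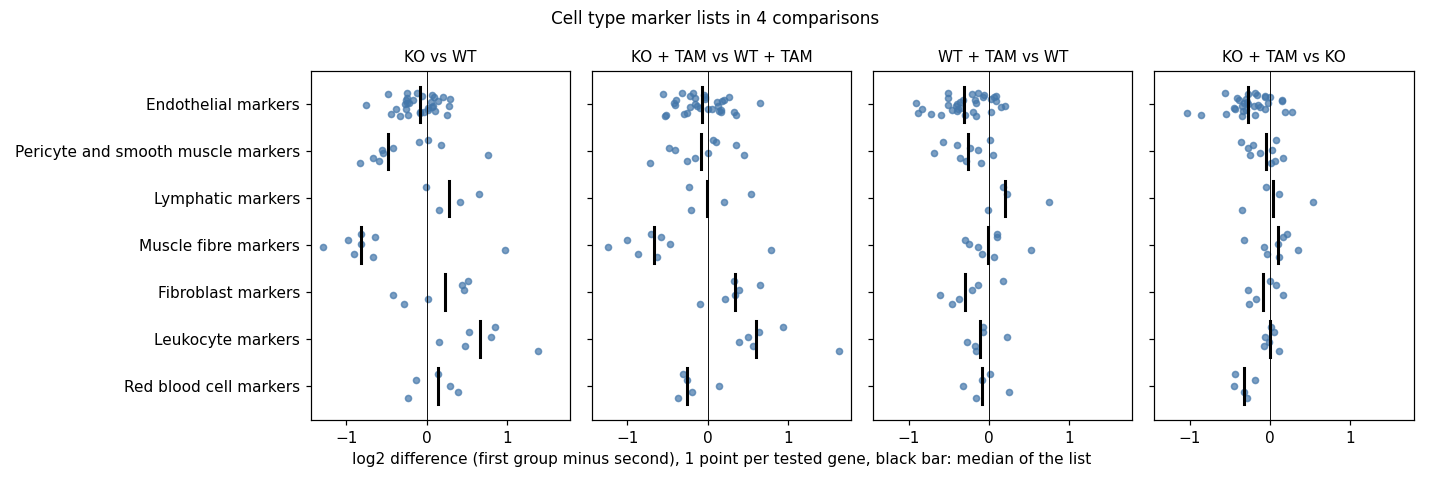
Log2 difference (horizontal axis, first group minus second) of each tested gene of 7 cell type marker lists in 4 comparisons, with the median of each list as a black bar. The endothelial median lies at -0.31 in WT + TAM vs. WT and at -0.08 in *Mtm1* KO vs. WT, where the muscle fibre median lies at -0.81.

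The lists of cell type markers give the setting of these values. In *Mtm1* KO vs. WT the 32 endothelial markers had a median of -0.08, with 13 above 0 and 19 below, and 0 passed. The median was -0.48 over 10 pericyte and smooth muscle markers, -0.81 over 8 muscle fibre markers, 0.67 over 6 tested leukocyte markers, 0.23 over 6 fibroblast markers, 0.28 over 4 tested lymphatic markers and 0.15 over 5 red blood cell markers, with 0 passing in each list. The summed leukocyte level was 55.0 to 66.6 RPKM in WT and 99.3 to 123 RPKM in *Mtm1* KO, and the summed muscle fibre level was 106940 to 130580 RPKM in WT and 76501 to 86997 RPKM in *Mtm1* KO. Of 12 genes of tip cells, which lead vessel sprouts, and of Notch signalling, 0 passed, with a median of -0.27. The part of these lists in the values of the 10 genes was not tested. Of the pericyte and muscle fibre lists, *Abcc9*, *Ckm*, *Myh4* and *Pvalb* fell in *Mtm1* KO + TAM vs. WT + TAM, by 0.73, 0.87, 1.24 and 1.00, and 0 of 32 endothelial markers passed, beside 6.72% of all tested genes. The 10 pericyte and smooth muscle markers had a median of -0.08 there, with 5 above 0 and 5 below, so the fall of *Abcc9* does not stand for its list. In *Mtm1* KO + TAM vs. WT, 4 of 32 endothelial markers were called lower by edgeR, with 25 below 0 and a median of -0.28, where 4.14% of all genes were called lower. In the same comparison 2 of 10 pericyte and smooth muscle markers (*Abcc9* and *Notch3*) were called lower, with a median of -0.53, 2 above 0 and 8 below. Of 8 muscle fibre markers 2 were called lower (*Myh4* and *Pvalb*), with a median of -0.67, while 1 of 4 tested lymphatic markers, *Pdpn*, was called higher. The leukocyte median was 0.65 with 0 called. Besides *Cdh5* the endothelial markers called were *Ptprb*, *Aqp1* and *Erg*, the latter 2, like *Pdpn* and *Notch3*, named after their values were seen, with differences of -0.57, -0.69 and -0.83.

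Likeness across the 14 libraries is described by Pearson's r of log2 CPM (counts scaled to library size) with no test, since the libraries share genotype and treatment. *Vegfa* had r = 0.86 with *Tek* and 0.85 with *Kdr*, *Pecam1* had 0.86 with *Aplnr*, and *Apln* had 0.78 with *Aplnr*. *Vegfa* and *Aplnr* had 0.06 and *Flt1* and *Apln* had -0.39. Of 10884 genes compared, the 5 most like *Vegfa* were *Pptc7*, *Adk*, *Kcnc1*, *mt-Nd2* and *Ndufs1* (r from 0.937 to 0.951). Those most like *Cdh5* were *Pxdn*, *Lynx1*, *Ldhd*, *Trp53inp2* and *Mmrn2* (0.932 to 0.954), and those most like *Apln* were *Atp8b2*, *Fscn1*, *Igfbp7*, *Cd93* and *Mesdc1* (0.870 to 0.883).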

How the data were processed

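Quadriceps RNA of 16 mice was analysed from 2 deposited tables of 41388 genes. Per the authors, counts are whole reads per gene from STAR alignment to GRCm38 and HTSeq. The submitters' notes name bcl2fastq 2.17, STAR 2.5.0c and Cufflinks 2.2.1. The deposited RPKM values are scaled by total count and gene length. Sources do not give the annotation, strand or counting mode. No column was set aside, and 0 of 120 library pairs were identical.

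Counts of the 2 groups compared were tested with edgeR 4.0.16 in R 4.3.3 (TMM, filterByExpr with minimum count 10 and total 15, quasi-likelihood test, Benjamini-Hochberg adjustment, adjusted p at most 0.01), over the 14 libraries of the study. Scripts were tested on simulated counts. Other settings tried were DESeq2 1.42.0, the exact test of edgeR, limma 3.58.1 on log2 RPKM with pseudocounts of 0.1 and 1, other scalings, filters and thresholds, 1 fit of 4 groups, 16 libraries, and each library left out.

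Named genes were the 10 members, other genes of their pathways, list genes called in *Mtm1* KO vs. WT or *Mtm1* KO + TAM vs. WT + TAM, and the 5 genes most like *Vegfa*, *Cdh5* and *Apln* (mean RPKM at least 1). *Vegfd* is listed by its older symbol *Figf*, *Adgre1* as *Emr1*, and *Apela* was not analysed here. The members and lists were chosen with earlier results of these data known. Division of RPKM by TMM factors, the ratios, and the addition of 1 library at a time were chosen after seeing the data. The RPKM values remained the reported levels, as planned. Positions are from GENCODE vM21 (GRCm38).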

Additional observations from a re-analysis of the deposited data

Results flagged for a closer look

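A library was listed where its level stood apart from the other 3 of its labelled group of 4, with a gap to the nearest value above Dixon's critical value for 4 samples. This was checked for 10 genes in 4 groups, and chance alone marks about 1 in 20 groups. Which libraries stood apart depended on the scale, and the second scale was added after the values in RPKM were seen. In RPKM as deposited, *Vegfa* in *Mtm1* KO + TAM replicate 16 was 25.2, above the other 3 libraries of the group, and *Vegfb* in WT + TAM replicate 6 was 36.6, below the other 3. After division by the TMM factors, *Vegfa* in *Mtm1* KO replicate 9 was 18.5, above the other 3, *Vegfb* in WT + TAM replicate 6 was 39.5, below the other 3, and *Vegfb* in *Mtm1* KO + TAM replicate 13 was 57.9, above the other 3. Of these, *Vegfb* in WT + TAM replicate 6 stood apart on both scales.

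The library labelled WT replicate 1, which entered no test and whose *Mtm1* count went against its label, lay above the other WT libraries in 2 genes in RPKM and in 3 after TMM scaling. *Vegfb* was 69.4 RPKM and 89.8 after TMM scaling, *Flt1* was 5.81 RPKM and 7.52 after TMM scaling, and *Pecam1* was 18.6 after TMM scaling. In the other direction it lay below the 3 tested WT libraries on both scales in 4 genes, at 9.15 RPKM for *Vegfa*, 17.3 for *Cdh5*, 2.23 for *Tek* and 2.45 for *Apln*.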

How the results depend on the processing

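The number of members called, or without overlap between groups, was the same, or within 1.5 times, in 106 of 131 alternative values and outside this in 25. A number of 0 in both settings counts as the same. In *Mtm1* KO vs. WT it went from 0 to 1 with DESeq2 (*Vegfa*). In WT + TAM vs. WT it went from 0 to 1 at an adjusted p of 0.05 or with no filter on low counts (*Aplnr*), and to 2 with DESeq2 or the exact test (*Cdh5* and *Aplnr*). In *Mtm1* KO + TAM vs. WT it went from 1 to 4 at 0.05, with DESeq2 or with no filter, to 3 with the exact test, to 2 in 1 fit of all 4 groups, and to 0 with limma at either pseudocount, with library size only, with all 16 libraries and with WT replicate 1 added. Leaving out 1 library at a time gave 0 to 3, with 3 (*Vegfa*, *Cdh5* and *Tek*) without *Mtm1* KO + TAM replicate 16. In *Mtm1* KO + TAM vs. WT + TAM it went from 0 to 1 at 0.05 (*Tek*), and leaving out 1 library gave 0 to 1. No member was called in *Mtm1* KO + TAM vs. *Mtm1* KO or in the interaction under any alternative run. Members without overlap between groups went, from RPKM to TMM-scaled values, from 1 to 0 in *Mtm1* KO + TAM vs. *Mtm1* KO, from 1 to 2 in *Mtm1* KO + TAM vs. WT and from 1 to 0 in *Mtm1* KO + TAM vs. WT + TAM, and in *Mtm1* KO vs. WT the 1 member was *Flt1* in RPKM and *Tek* after scaling. No called difference turned its direction. The cause of these changes was not tested. The paper's supplement states that the sequenced samples came from littermates. No paired analysis was possible because the labels name no litter and the groups share no replicate numbers, so litter was not modelled. With 3 or 4 mice per group, differences of the size seen for *Kdr* and *Apln* had wide intervals.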
